A study of Mus musculus with 24 samples.

Results

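The genes described here were 10 α- and β-tubulin genes, taken by symbol from the 55487 genes listed in both deposited expression tables. They comprised the β-tubulins Tubb3, Tubb5, Tubb2a, Tubb2b, Tubb4b and Tubb6 and the α-tubulins Tuba1a, Tuba1b, Tuba1c and Tuba4a. Tubb3 was chosen by its mRNA levels in the first of the experiments, where its mean was higher with sgCbfb in one stage and lower in the other, so its values there are given as a description without a test. All 10 genes passed the filter on low values, which required 1 CPM (reads of a gene scaled to the same total of reads on genes in every library) or more in 3 or more libraries and left 13239 genes of the first experiment and 13177 of the second.

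The study asked how RUNX factors and Notch signaling start the T-lineage program, and measured mRNA by QuantSeq, which reads 3′ ends and gives about one tag per transcript, in 24 libraries of 8 groups with 3 libraries each. All groups were Cas9-LPs, lymphoid progenitor lines derived from the fetal liver of mice that lack Ebf1 and carry Cas9 at Rosa26, so the controls share both alterations. In the first experiment the groups were LPs (held on OP9 stroma) and Phase 1 cells (given the Notch ligand DLL4 by OP9-DLL4 stroma for 2 days), each with sgControl or sgCbfb. The second experiment held LPs only, with sgControl, sgCbfb, sgCTCF or sgMed12. For each targeted gene 3 sgRNAs were pooled, sgControl was directed against luciferase, and transduced cells were sorted as hNGFR+CD45+ on day 5 after transduction. The replicates are described as biologically independent, but how many separate lines or mice they came from was not given in the sources used here.

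Microtubules are polymers of α/β-tubulin heterodimers, and mammals encode each subunit in several genes, whose products are called isotypes. Isotypes are similar in their globular bodies and differ mostly in the C-terminal tail, where enzymes add or remove tyrosine, glutamate and glycine. Tubb5 and Tuba1b are the isotypes of most dividing cells, Tubb3 is best known as a marker of neurons, and Tubb2a, Tubb2b and Tuba1a are abundant in brain. Cells also adjust tubulin mRNA to the amount of free tubulin, through TTC5, which recognizes nascent tubulin on the ribosome, and SCAPER, which links it to mRNA decay. Cbfb encodes the partner that RUNX factors need for stable DNA binding, CTCF is an architectural protein of chromatin, and Med12 is a subunit of the Mediator kinase module.

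On mm10 (GRCm38, GENCODE M21 gene models), Tubb3 lies at chr8:123411424-123422015 on the + strand. Tubb2a (chr13:34074274-34078007) and Tubb2b (chr13:34126748-34130466) are neighbors on the - strand of chromosome 13, 48741 bases apart. Tuba1b (chr15:98931425-98934565, -), Tuba1a (chr15:98949837-98953703, -) and Tuba1c (chr15:99029891-99038110, +) form a cluster on chromosome 15, and Tubb5 (chr17:35833921-35838306, -), Tubb4b (chr2:25222160-25224702, -) and Tuba4a (chr1:75214228-75219865, -) are on separate chromosomes. How far a tag can be assigned to one gene differs between members. Of the 75-base windows in the last 400 exonic bases, none was shared with another gene for Tubb3, Tubb5, Tubb2b, Tubb6 or Tuba4a, but 26.7% were shared for Tubb2a, with Tubb2b and a Tubb2a pseudogene, and 16.3% for Tubb4b. For Tuba1a, Tuba1b and Tuba1c these shares were 39.6%, 49.7% and 55.8%, with one another and with pseudogenes, so the split of tags among these 3 genes is uncertain. Exons of Tuba4a also overlap those of Stk16, a kinase gene on the opposite strand, by 1379 bases.

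The sequences upstream of Tubb3 and Tubb2a are shown because these members, respectively, carry the stage-opposed pattern and the opposite responses to sgCbfb and sgCTCF. They were taken from the RefSeq promoter table (GRCm38.p6), which held 8 of the 10 members, and run 5′ to 3′ on the gene's own strand. Capitals mark GC boxes, GGGCGG on either strand. The Tubb3 stretch is chr8:123411303-123411423 (+, 121 bases that end before the annotated gene start) and the Tubb2a stretch is chr13:34078009-34078258 (-, 250 bases).
Tubb3: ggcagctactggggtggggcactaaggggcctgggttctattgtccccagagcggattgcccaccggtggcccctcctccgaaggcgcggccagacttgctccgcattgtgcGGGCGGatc
Tubb2a: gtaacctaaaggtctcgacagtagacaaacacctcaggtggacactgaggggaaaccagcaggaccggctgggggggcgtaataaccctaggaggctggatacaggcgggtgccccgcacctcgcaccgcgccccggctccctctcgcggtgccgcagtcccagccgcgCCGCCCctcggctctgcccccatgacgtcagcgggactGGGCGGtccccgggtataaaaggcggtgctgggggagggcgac
In the 250 bases before the RefSeq start, searched on both strands, neither gene had the RUNX core TGTGGT (present in 14.05% of 32851 promoters) or TGCGGT (5.10%). Among the 8 members only Tuba4a had a RUNX core, TGCGGT on the - strand 230 to 225 bases before the RefSeq start. The Tuba4a window (chr1:75219295-75219544) lies inside the GENCODE gene model, so this match is not upstream of that model. GC boxes, found in 32.7% of all promoters, stood 138 to 133 and 46 to 41 bases before the RefSeq start in Tubb3 and 81 to 76 and 43 to 38 bases before it in Tubb2a. The Tubb3 box at 46 to 41 lies inside the GENCODE gene and so outside the stretch shown. None of these matches overlapped another, and they describe letters in one window, not binding.

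The libraries of the first experiment held 1363263 to 1743319 reads on genes, and those of the second 3354483 to 4326782, so that 3 reads, the floor used here, corresponded to 1.72 to 2.20 CPM and 0.693 to 0.894 CPM. Cbfb mRNA fell with sgCbfb in LPs of both experiments (86.5 to 40.2 CPM, adjusted p = 0.0055, and 114 to 48.4 CPM, adjusted p = 4.3e-06, limma), but in Phase 1 cells it was 73.4, 81.3 and 44.7 CPM with sgControl and 44.1, 63.5 and 54.2 CPM with sgCbfb. Ctcf fell from 391 to 306 CPM with sgCTCF (adjusted p = 0.021). Med12 was 6.59, 4.43 and 4.38 CPM with sgControl and 9.61, 3.20 and 8.23 CPM with sgMed12, so its mRNA does not check that label. The study checked the deletions at the protein level, by immunoblots of Cbfβ, CTCF and Med12 in transduced Cas9-LPs 3 days after transduction. No such blot of Phase 1 cells or of cells on day 5 is described. Ptprc, which encodes CD45, was at 443 to 764 CPM in the first experiment, and 8 of 9 tested Notch-response genes (Hes1, Dtx1, Notch1, Notch3, Nrarp, Tcf7, Gata3 and Il2ra) rose in Phase 1 relative to LP sgControl cells. Replicate 2 of sgMed12 stood nearer to sgControl (mean absolute log2 difference 0.241) than did replicates 1 and 3 (0.404 and 0.333). Replicate 3 of Phase 1 sgControl stood farther from its own group (0.558) than its companions (0.420 and 0.398). Several results, but not all, that involve either library are also given without it.

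Tubulin mRNA in these cells came mostly from a few genes. Tubb5 ranged from 1470 to 1973 CPM over the libraries of the first experiment and made up 81.9% to 87.4% of the β-tubulin tags in the group means, and Tuba1b was the leading α-tubulin, with group means from 1058 to 1293 CPM. In LPs of the second, Tubb5 ranged from 2154 to 2708 CPM, or 81.5% to 92.2% of β-tubulin tags. Tuba1c, Tuba1a, Tuba4a, Tubb4b and Tubb2b followed, and Tubb3, Tubb2a and Tubb6 were the minor members. Because a tag is counted about once per transcript, these levels were compared between genes without division by transcript length. Levels were not compared between experiments, whose tables were scaled separately.

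**Figure D1:**
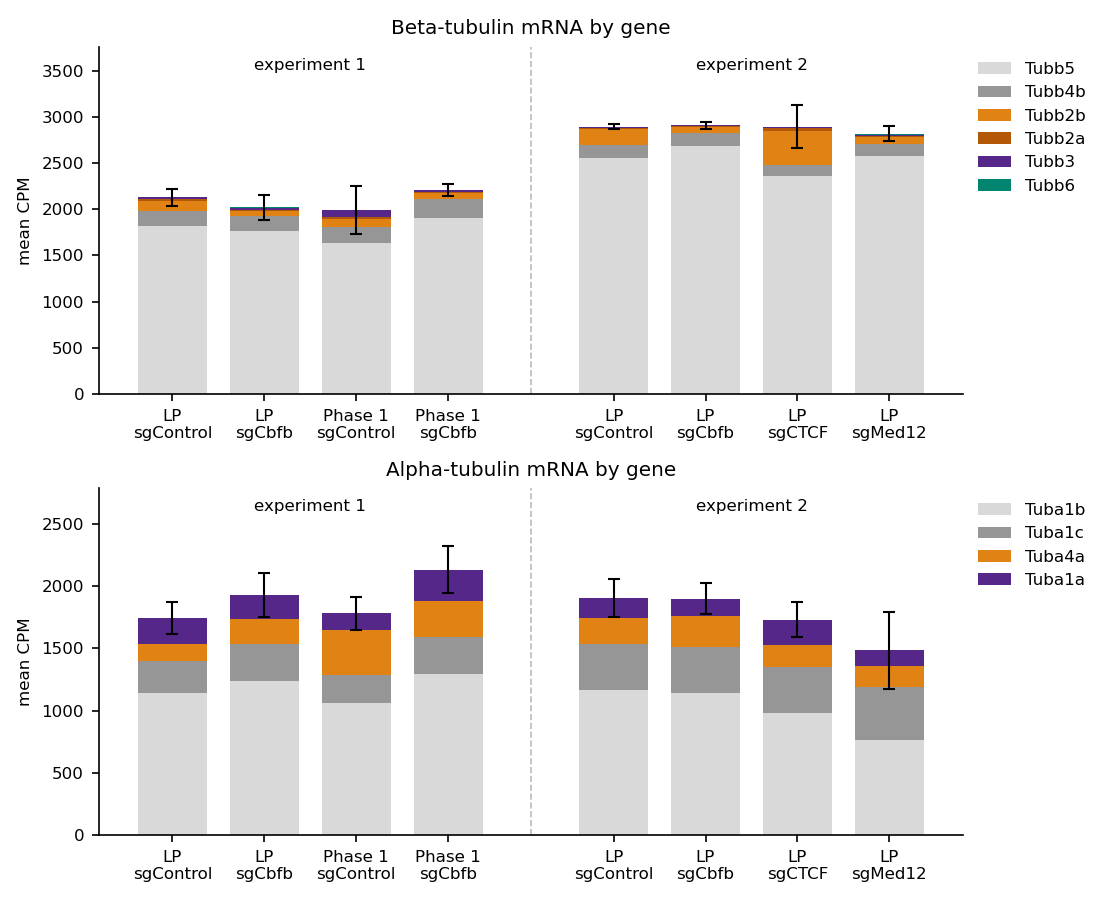
Mean CPM of the β-tubulin genes (upper panel) and α-tubulin genes (lower panel) stacked by isotype in each of the 8 groups, with the SD of the total as a line (n = 3 libraries). Tubb5 fills most of each β-tubulin bar and Tuba1b most of each α-tubulin bar, while Tubb3 is a thin band that reached 4.07% of β-tubulin in Phase 1 sgControl cells.

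Tubb3 was lowest in LPs with sgControl in the first experiment, where the 3 libraries had 11.2, 8.05 and 18.0 CPM (12.4 ± 5.07, SD, n = 3). With sgCbfb, LPs had 36.0, 23.5 and 25.7 CPM (28.4 ± 6.65, n = 3), and every sgCbfb library lay above every sgControl library. Phase 1 cells with sgControl had 79.8, 74.8 and 88.0 CPM (80.9 ± 6.66, n = 3), the highest level of the experiment, and Phase 1 cells with sgCbfb had 12.3, 17.0 and 20.04 CPM (16.4 ± 3.89, n = 3). In order of level the groups were thus Phase 1 sgControl, LP sgCbfb, Phase 1 sgCbfb and LP sgControl, and only the last pair of neighbors overlapped. On the log2(CPM + 1) scale the sgCbfb difference was 1.18 in LPs and -2.25 in Phase 1, the Phase 1 minus LP difference was 2.67 with sgControl and -0.76 with sgCbfb, and the sgCbfb effect in Phase 1 minus that in LPs was -3.43. These are the values on which Tubb3 was chosen. They rest on 13 to 120 reads per library, and in bulk RNA fewer expressing cells and less mRNA per cell cannot be told apart.

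As a share of β-tubulin tags, Tubb3 made up 0.579% ± 0.216 in LP sgControl, 1.42% ± 0.419 in LP sgCbfb, 4.07% ± 0.259 in Phase 1 sgControl and 0.742% ± 0.164 in Phase 1 sgCbfb cells (SD, n = 3 each). Even at its highest it was thus a small fraction of the β-tubulin mRNA. Neuronal markers were looked up because Tubb3 is used as a marker of neurons. Of 10 such genes, including Dcx, Mapt and Map2, 7 to 9 had no read in a given group, and only Syt1 was called in a comparison. Syt1, a calcium sensor of secretory vesicles, had 5.90, 0.619 and 0 CPM in LP sgControl and 56.4, 35.0 and 52.1 CPM in LP sgCbfb (log2 fold change 4.42, adjusted p = 0.00012, limma). In Phase 1 its means were 0.645 CPM with sgControl and 13.4 CPM with sgCbfb, so Syt1 was low in the group where Tubb3 was highest. The summed level of the neuronal markers was 0 to 5.90 CPM in LP sgControl, 35.0 to 57.1 in LP sgCbfb, 0.733 to 2.12 in Phase 1 sgControl and 13.8 to 17.7 in Phase 1 sgCbfb. The part of any other cell type in the Tubb3 levels was not tested.

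Tubb3 was chosen by its levels in the first experiment, though the tubulin genes were picked with earlier results of these data known. The second experiment allows a test of sgCbfb in LPs again, as well as of sgCTCF and sgMed12, if not one wholly free of that choice. With sgControl the libraries had 8.97, 6.20 and 3.41 CPM (6.19 ± 2.78, n = 3), and with sgCbfb 10.4, 14.2 and 5.79 CPM (10.1 ± 4.22, n = 3). These groups overlapped, and Tubb3 did not pass the test with sgCbfb (log2 fold change 0.63, 95% interval -0.05 to 1.32, adjusted p = 0.252, limma across all genes with Benjamini-Hochberg adjustment). Nor did it pass with sgCTCF, where the libraries had 9.39, 8.08 and 4.62 CPM (7.36 ± 2.46, n = 3; 0.25, interval -0.43 to 0.93, adjusted p = 0.726). With sgMed12 it had 21.2, 19.8 and 13.9 CPM (18.3 ± 3.86, n = 3), all above the highest sgControl library.

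Tubb3 rose 2.95-fold in mean CPM with sgMed12 (log2 fold change 1.48 ± 0.33 SE, adjusted p = 0.0108, limma), and was among the members called. Calling required an adjusted p under 0.05, group means more than 1 apart as a log2 ratio, and more than 10 CPM on average in one of the groups. Without replicate 2 of sgMed12 the rise was 1.42 (adjusted p = 0.00482), whereas without replicate 3 of sgControl, its lowest library, the adjusted p was 0.064 and the call was lost. Tubb3 was also higher with sgMed12 than with sgCTCF (1.23 ± 0.33, adjusted p = 0.00993, 2.48-fold), a call lost without replicate 3 of sgCTCF (adjusted p = 0.072). Against sgCbfb the difference was 0.85 (interval 0.16 to 1.53, adjusted p = 0.0821), with libraries that overlapped at 13.9 and 14.2 CPM. In order, the levels of the second experiment were sgMed12, sgCbfb, sgCTCF and sgControl, and each pair of neighbors overlapped. Tubb3 was 0.647% ± 0.120 of β-tubulin with sgMed12 and 0.214% ± 0.0946 with sgControl, without overlap (two-sided exact permutation p = 0.1, the smallest that 3 against 3 can give). The summed neuronal markers were 2.03 to 4.52 CPM with sgMed12 and 0.974 to 4.75 CPM with sgControl.

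**Figure D2:**
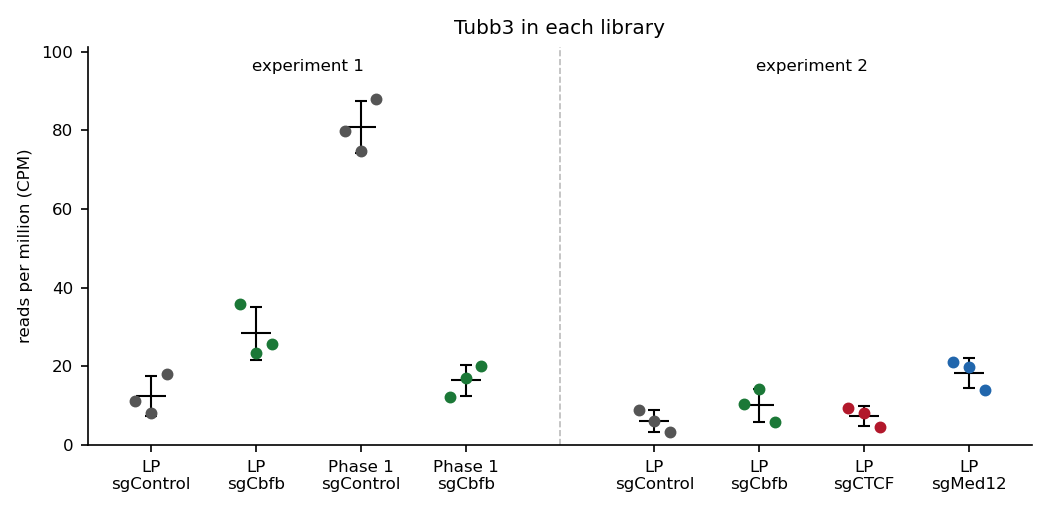
CPM of Tubb3 in each library (dots) with the mean and SD (bars) of the 8 groups, the first experiment on the left and the second on the right, n = 3 per group. Phase 1 sgControl libraries sit at 74.8 to 88.0 CPM, far above Phase 1 sgCbfb at 12.3 to 20.04, and in the second experiment the sgMed12 libraries (13.9 to 21.2) sit above sgControl (3.41 to 8.97).

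Tubb2a and Tubb2b, the adjacent class II β-tubulin genes, were both lower with sgCbfb in LPs of each experiment. In the first experiment Tubb2a had 30.7, 23.5 and 18.0 CPM with sgControl (24.1 ± 6.37, n = 3) and 7.05, 7.46 and 2.14 CPM with sgCbfb (5.55 ± 2.96, n = 3), groups that did not overlap. It fell 4.34-fold (log2 fold change -2.04 ± 0.42, 95% interval -2.91 to -1.16, adjusted p = 0.00619, limma), and one sgCbfb library held only 3 reads, at the floor. Tubb2b had 118, 124.5 and 86.1 CPM with sgControl (109.5 ± 20.6, n = 3) and 58.5, 53.3 and 45.0 CPM with sgCbfb (52.3 ± 6.86, n = 3). It fell 2.09-fold (-1.04 ± 0.20, interval -1.46 to -0.63, adjusted p = 0.00306, limma), again without overlap. These were the 2 members called among the 9 other than Tubb3, both lower, where 1.69% of all genes tested were called and 0.597% were called lower.

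The sgCbfb groups of the second experiment, made with separate controls and deeper libraries, gave similar values. Tubb2a had 19.0, 18.9 and 10.2 CPM with sgControl (16.0 ± 5.03, n = 3) and 3.88, 5.90 and 8.57 CPM with sgCbfb (6.11 ± 2.35, n = 3). Tubb2b had 194, 142 and 180 CPM with sgControl (172 ± 26.9, n = 3) and 66.2, 68.6 and 75.8 CPM with sgCbfb (70.2 ± 5.01, n = 3). For both genes all sgCbfb libraries lay below all sgControl libraries. Tubb2a fell 2.62-fold (-1.27 ± 0.26, adjusted p = 0.00133, limma) and Tubb2b 2.45-fold (-1.27 ± 0.16, adjusted p = 1.46e-06). They were the 2 of 10 members called, where 4.33% of all genes tested were called. The adjusted p of both genes stayed under 0.05 in each experiment with any single library left out.

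In Phase 1 cells neither gene passed the test with sgCbfb. Tubb2a had 17.6, 14.2 and 14.7 CPM with sgControl and 12.3, 8.80 and 10.0 CPM with sgCbfb, lower in every library (log2 fold change -0.54, interval -1.42 to 0.34, adjusted p = 0.558, limma). Tubb2b had 98.8, 73.5 and 105.6 CPM with sgControl and 62.2, 90.5 and 68.9 CPM with sgCbfb, with overlap (-0.32, interval -0.74 to 0.09, adjusted p = 0.431). The difference between the sgCbfb effects in the stages did not pass either (Tubb2a 1.49, interval 0.25 to 2.74, adjusted p = 0.347, and Tubb2b 0.72, adjusted p = 0.334), so a response limited to LPs is not shown. Between Phase 1 and LP sgControl cells neither gene passed (-0.58, adjusted p = 0.485, and -0.24, adjusted p = 0.552).

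With sgCTCF both genes moved in the other direction. Tubb2a had 37.0, 36.2 and 40.4 CPM (37.9 ± 2.25, n = 3), a rise of 2.36-fold over sgControl (1.24 ± 0.26, interval 0.69 to 1.78, adjusted p = 0.00265, limma). Tubb2b had 423, 318 and 368 CPM (370 ± 52.5, n = 3), a rise of 2.15-fold (1.10 ± 0.16, interval 0.77 to 1.43, adjusted p = 3.32e-05). Every sgCTCF library exceeded every sgControl library for both, and these were the 2 of 10 members called, where 2.43% of all genes tested were called. Set directly against sgCbfb, the sgCTCF groups were 6.20-fold higher for Tubb2a (2.50, adjusted p = 7e-08) and 5.27-fold higher for Tubb2b (2.37, adjusted p = 1.65e-11), again the 2 members called, where 6.87% of all genes tested were called. Since 26.7% of the Tubb2a windows at the 3′ end are shared with Tubb2b, the more abundant of the pair, or with a pseudogene, the values of Tubb2a are not fully separate from those of Tubb2b, and how far tags of one were assigned to the other was not tested.

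sgMed12 separated the pair in its test results. Tubb2b had 74.9, 105 and 57.6 CPM (79.2 ± 24.1, n = 3), all below sgControl, a fall of 2.17-fold (-1.14 ± 0.16, interval -1.47 to -0.82, adjusted p = 0.000149, limma). Tubb2a had 10.7, 8.14 and 11.9 CPM (10.3 ± 1.94, n = 3), which overlapped sgControl through its lowest library (-0.56, adjusted p = 0.198). Whether the responses of the 2 genes to sgMed12 differ from each other was not tested. Tubb2b and Tubb3 were the 2 of 10 members called with sgMed12, where 1.03% of all genes tested were called. Without replicate 2 of sgMed12, which raised the share called to 2.73%, Tubb2b fell by 1.36 on the log2 scale (adjusted p = 8.93e-09) and Tubb2a was at -0.42 (adjusted p = 0.308). Both genes were lower with sgMed12 than with sgCTCF (Tubb2a -1.80, adjusted p = 3.48e-05, and Tubb2b -2.24, adjusted p = 4.42e-10). With Tubb3 they were the 3 of 10 members called there, where 4.01% of all genes tested were called.

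As a share of β-tubulin tags, Tubb2b went from 5.18% ± 1.13 to 2.60% ± 0.430 with sgCbfb in LPs of the first experiment (SD, n = 3 each). In the second it was 5.96% ± 0.939 with sgControl, 2.41% ± 0.166 with sgCbfb, 12.8% ± 1.05 with sgCTCF and 2.80% ± 0.807 with sgMed12. Each of these shares was apart from its sgControl group (two-sided exact permutation p = 0.1 for each, the smallest possible). The 3 comparisons of the second experiment share their sgControl libraries and are therefore not independent of one another.

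**Figure D3:**
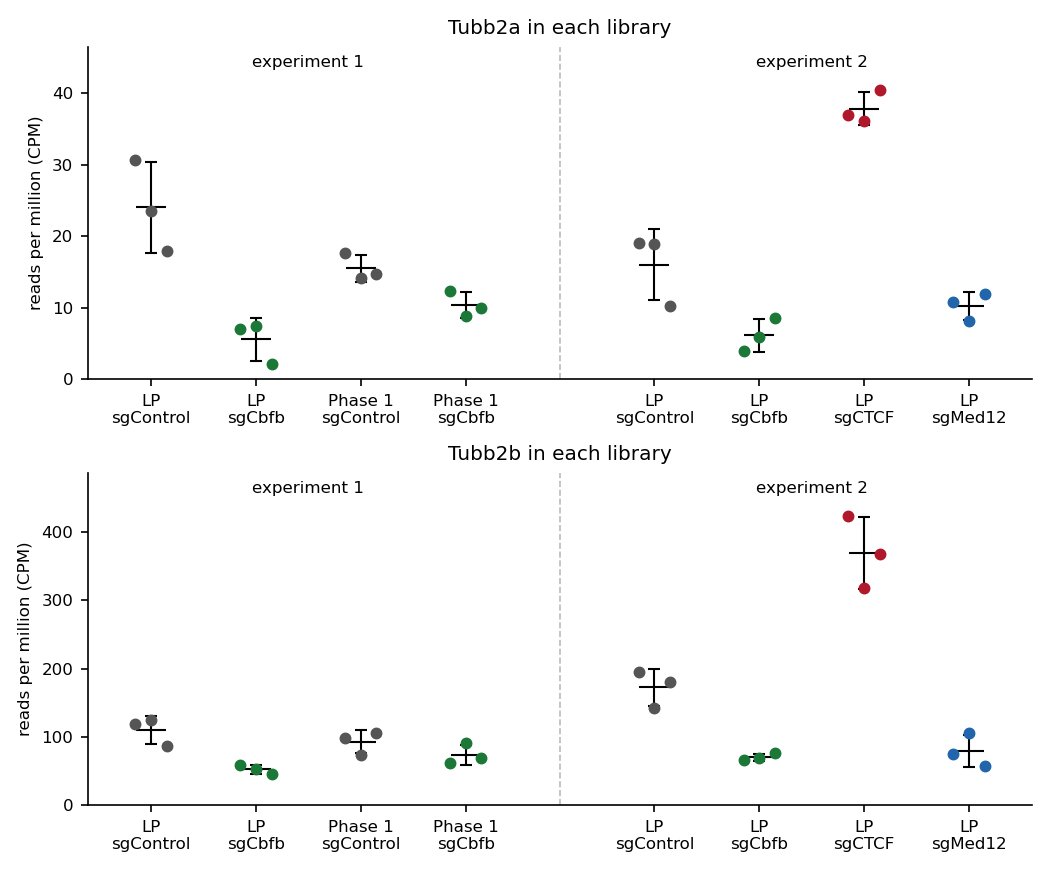
CPM of Tubb2a and Tubb2b in each library (dots) with mean and SD (bars) for the 8 groups, n = 3 per group. Both genes sit lower with sgCbfb in LPs of each experiment and higher with sgCTCF (36.2 to 40.4 CPM for Tubb2a, 318 to 423 CPM for Tubb2b), and Tubb2b alone lies wholly below sgControl with sgMed12.

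The other β-tubulins varied less or were near the floor. Tubb5, the main β-tubulin, passed the test in none of the 10 comparisons between groups (limma, log2 fold changes -0.19 to 0.23, smallest adjusted p = 0.185), and the 95% intervals reached no farther than -0.39 and 0.45. For Tubb4b, an isotype found in axonemes as well as in the cytoplasm, the fold changes ran from -0.24 to 0.26 (smallest adjusted p = 0.139), with intervals within -0.47 and 0.57. Tubb6 had 0.573 to 7.10 CPM in the first experiment, or 1 to 11 reads, too few to compare groups. With the deeper libraries of the second, Tubb6 had 4.48, 5.32 and 8.04 CPM with sgControl (5.94 ± 1.86, n = 3) and 2.09, 1.07 and 1.51 CPM with sgCbfb (1.56 ± 0.509, n = 3), without overlap. It fell with sgCbfb (-1.43 ± 0.34, interval -2.12 to -0.73, adjusted p = 0.00418, limma) at levels under the 10 CPM needed for a call. In these sgCbfb libraries 3 reads corresponded to 0.894, 0.804 and 0.756 CPM, so this fall also rests on few reads. Tubb6 was likewise higher with sgMed12 (5.65, 10.8 and 5.96 CPM) than with sgCbfb (1.69, adjusted p = 0.000693, limma), and by 1.43 (adjusted p = 0.00393) without replicate 2 of sgMed12.

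Among the α-tubulins, Tuba4a, whose protein is made without the C-terminal tyrosine that other α-tubulins carry, differed between the stages. LP sgControl libraries had 109, 141 and 166 CPM (138.5 ± 28.9, n = 3) and Phase 1 sgControl libraries 323, 334 and 429 CPM (362 ± 58.5, n = 3), with no overlap. Tuba4a rose 2.61-fold in Phase 1 (1.39 ± 0.17, interval 1.04 to 1.73, adjusted p = 5.21e-06, limma), and 1.26 (adjusted p = 4.89e-09) without replicate 3 of Phase 1 sgControl. It was the 1 member called among the 9 other than Tubb3, where 3.39% of all genes tested were called. Stk16, which overlaps it on the opposite strand, had means of 43.8 and 72.9 CPM in the same groups (0.75, adjusted p = 0.051), and since the strand used in counting was not given, its part in the Tuba4a value was not tested.

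With sgCbfb the levels of Tuba4a in the stages lay closer together. LP sgCbfb libraries had 159, 233 and 226 CPM (206 ± 40.5, n = 3) and Phase 1 sgCbfb libraries 299.5, 299.1 and 266 CPM (288 ± 19.0, n = 3), which differed by 0.50 (interval 0.16 to 0.85, adjusted p = 0.146, limma), and by 0.50 with an adjusted p of 0.0156 without replicate 3 of Phase 1 sgControl. The sgCbfb difference was 0.57 in LPs (adjusted p = 0.0727, which ranged from 0.0036 to 0.34 with single libraries left out, passing without LP sgControl replicate 3, Phase 1 sgControl replicate 3 or LP sgCbfb replicate 1) and -0.32 in Phase 1, where the groups did not overlap (adjusted p = 0.335). The difference between these effects was -0.89 ± 0.23 (interval -1.38 to -0.40, adjusted p = 0.0711). Leaving out single libraries gave an adjusted p from 0.024 to 0.22. Tuba4a, in the second experiment, passed no test against sgControl. It was lower with sgMed12 (117, 250.2 and 138.5 CPM) than with sgCbfb (274, 218 and 271 CPM) by -0.66 (adjusted p = 0.0188, limma). This passed no longer without sgCbfb replicate 1 or 3 or sgMed12 replicate 1 or 3 (adjusted p up to 0.12). It also failed with no filter on low values or without moderated variances. Without sgMed12 replicate 2, at 250.2 CPM, this difference was -0.99 (adjusted p = 3.2e-06), and Tuba4a also fell against sgControl (-0.65, adjusted p = 0.00128).

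Tuba1a moved with the stage in the opposite direction. In the order replicate 1 to 3 it had 204, 214 and 192 CPM in LP sgControl (203 ± 10.8, n = 3) and 144, 148 and 118 CPM in Phase 1 sgControl (137 ± 16.4, n = 3), a fall of 0.57 on the log2 scale (-0.57 ± 0.13, adjusted p = 0.00791, limma). This difference was -0.47 (adjusted p = 0.019) without replicate 3 of Phase 1 sgControl. It did not pass without replicate 2 of LP sgControl (adjusted p = 0.05005). Phase 1 sgCbfb cells had 262, 258 and 232 CPM (251 ± 16.6, n = 3), 1.83-fold above Phase 1 sgControl (0.87 ± 0.13, interval 0.60 to 1.14, adjusted p = 0.000127) with no overlap. In LPs the sgCbfb libraries, at 195, 201 and 174 CPM (190.1 ± 14.1, n = 3), overlapped sgControl (-0.10, adjusted p = 0.877). The sgCbfb effect in Phase 1 exceeded that in LPs by 0.97 ± 0.18 (interval 0.59 to 1.35, adjusted p = 0.00666), and Tuba1a was the 1 member of the 9 called for this difference, where 1.19% of all genes tested were called.

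Neither change of Tuba1a reached the fold needed for a call between groups. None of the 9 members other than Tubb3 was called with sgCbfb in Phase 1, where 3.52% of all genes tested were called. In limma 4 of them had an unadjusted p under 0.05, and edgeR also called 0. The share of all genes under that unadjusted p was not computed, so such counts here and below are a description only. Of the 9, 0 were called between Phase 1 and LP sgCbfb cells by limma, where 1.19% of all genes tested were called, with 4 at an unadjusted p under 0.05 and 0 called by edgeR. Tags of Tuba1a cannot be wholly separated from those of Tuba1b and Tuba1c, of which Tuba1b did not pass with sgCbfb in Phase 1 and Tuba1c was at 0.42 (adjusted p = 0.0803). Without replicate 3 of Phase 1 sgControl, Tuba1a rose by 0.77 (adjusted p = 3.32e-05), and Tuba1c and Tubb5 also passed, at 0.58 (adjusted p = 0.00114) and 0.35 (adjusted p = 0.0101).

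**Figure D4:**
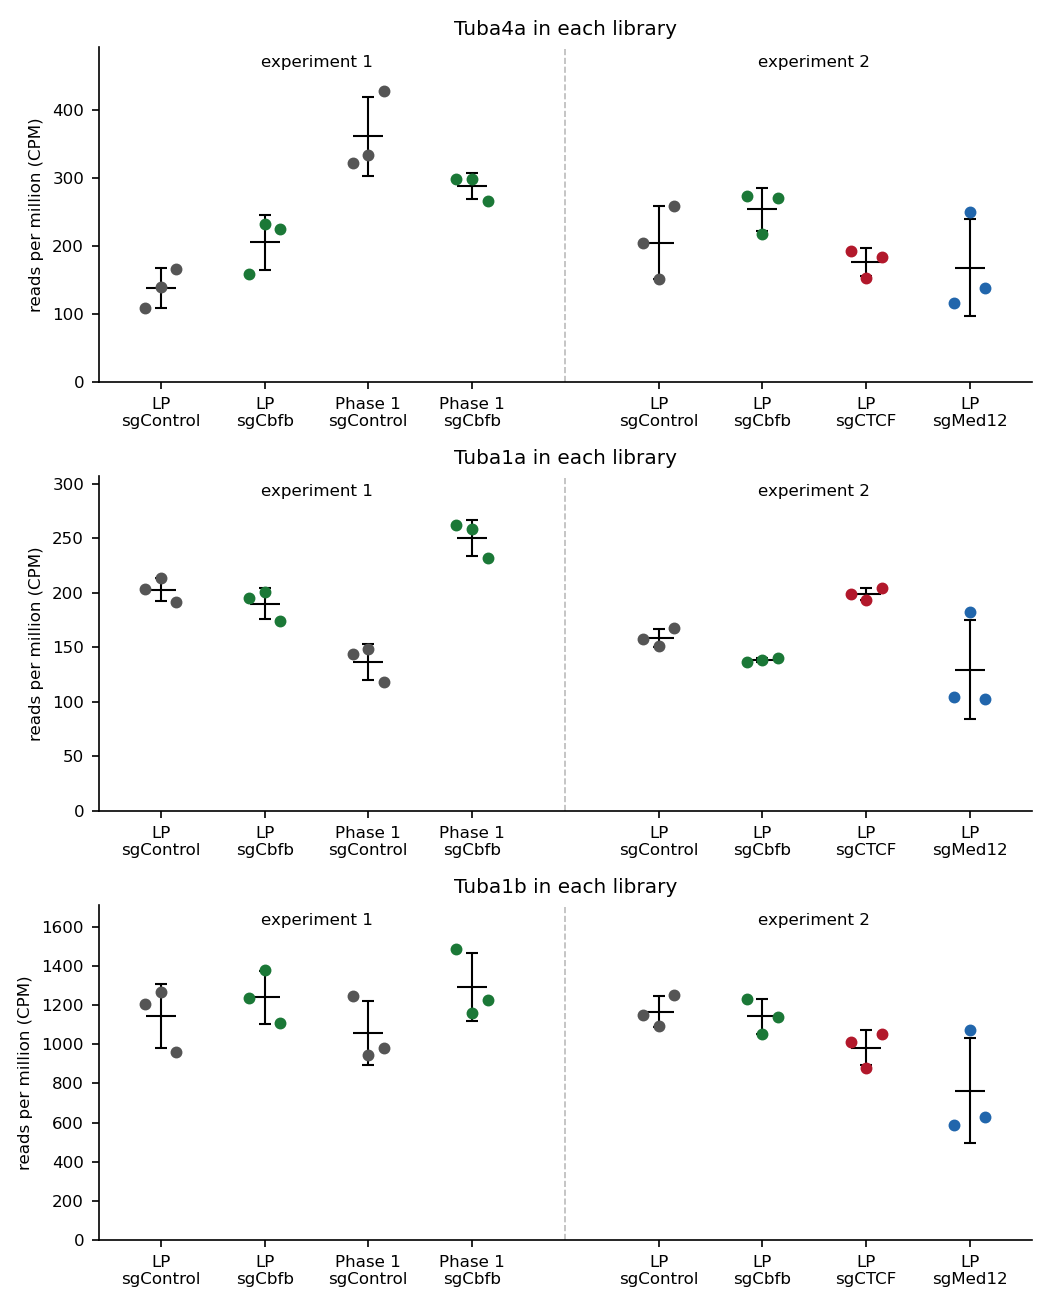
CPM of Tuba4a, Tuba1a and Tuba1b in each library (dots) with mean and SD (bars) for the 8 groups, n = 3 per group. Among sgControl cells Tuba4a is higher in Phase 1 than in LPs (323 to 429 against 109 to 166 CPM), Tuba1a is lowest there (118 to 148 CPM) in the first experiment, and sgMed12 replicate 2 stands apart from its companions for all 3 genes.

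Among the groups of the second experiment Tuba1a passed no test against sgControl, but was higher with sgCTCF (199, 193.5 and 204 CPM) than with sgCbfb (137, 139 and 141 CPM) by 0.52 (adjusted p = 0.0108, limma). It also differed between sgMed12 and sgCTCF, lower with sgMed12 (-0.67, adjusted p = 0.00215, limma). Tuba1b, the main α-tubulin, had 1152, 1094 and 1251 CPM with sgControl (1166 ± 79.4, n = 3) and 589, 1074 and 629 CPM with sgMed12 (764 ± 269, n = 3). It fell 1.53-fold with sgMed12 (-0.66 ± 0.15, interval -0.97 to -0.36, adjusted p = 0.0108), under the fold for a call, and this passed no longer without sgControl replicate 3, sgMed12 replicate 1 or sgMed12 replicate 3 (adjusted p up to 0.09). Replicate 2, at 1074 CPM, was the library nearest to sgControl. Without it Tuba1b fell by 0.93 (adjusted p = 8.75e-09), Tuba1a by 0.61 (adjusted p = 2.58e-05), and Tuba1c rose by 0.31 (adjusted p = 0.0143). With all libraries Tuba1c passed in none of the 10 comparisons (log2 fold changes -0.18 to 0.42, intervals within -0.47 and 0.71). Tuba1b was also lower with sgMed12 than with sgCbfb (-0.63, adjusted p = 0.00347, limma). That adjusted p stayed under 0.05 with any single library left out, but was 0.098 without moderated variances. None of the 10 members was called between sgMed12 and sgCbfb by limma, where 4.48% of all genes tested were called, with 5 at an unadjusted p under 0.05 and 0 called by edgeR.

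**Figure D5:**
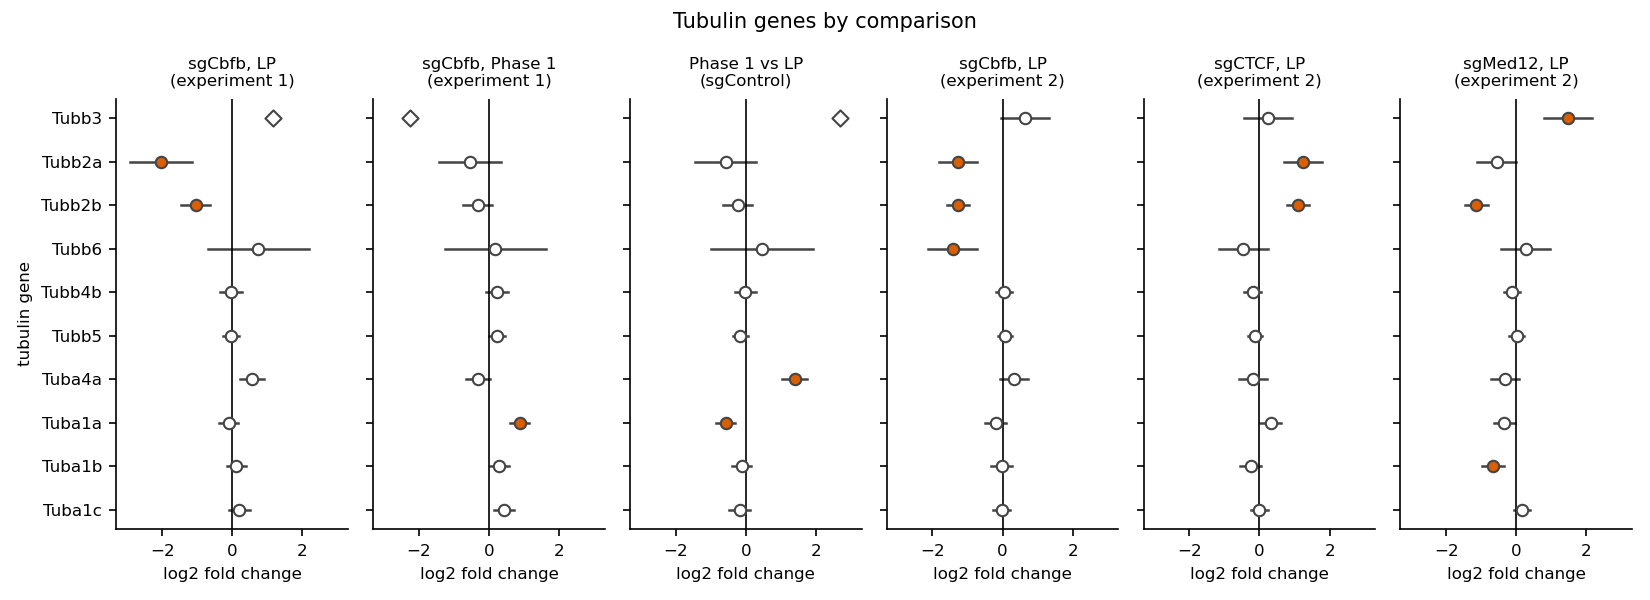
Log2 fold change of the 10 tubulin genes in 6 comparisons, with 95% intervals as lines, filled points for an adjusted p under 0.05 and open points otherwise, and diamonds without intervals for Tubb3 in the first experiment, where it was chosen. Tubb2a and Tubb2b lie to the left with sgCbfb in LPs (-2.04 and -1.04 in the first experiment, -1.27 for both in the second) and to the right with sgCTCF (1.24 and 1.10), while Tubb5, Tubb4b and Tuba1c have no filled point.

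Against these changes in single isotypes, the summed level of the 10 genes differed by -10.6% to 14.9% between the group means compared. It was 3870 ± 99.95 CPM in LP sgControl, 3949 ± 290 in LP sgCbfb, 3780 ± 306 in Phase 1 sgControl and 4343 ± 139 in Phase 1 sgCbfb cells (SD, n = 3 each). The sum in Phase 1 was 14.9% higher with sgCbfb than with sgControl, without overlap (two-sided exact permutation p = 0.1, the smallest possible), and the other sums of the first experiment overlapped between sgCbfb and sgControl and between the stages with sgControl. In the second experiment the sums were 4796 ± 132 CPM with sgControl, 4810 ± 164 with sgCbfb, 4625 ± 377 with sgCTCF and 4301 ± 350 with sgMed12, each of which overlapped sgControl. With sgMed12 only replicate 2, at 4693 CPM, lay within the sgControl range of 4658 to 4921 CPM. Replicates 1 and 3 of sgMed12, at 4186 and 4022.5 CPM, lay below it. The tubulin genes took 0.378% to 0.481% of the reads in the group means. The ratio of α- to β-tubulin tags ranged from 0.821 ± 0.0859 in LP sgControl to 0.968 ± 0.114 in Phase 1 sgCbfb in the first experiment, and from 0.527 ± 0.105 with sgMed12 to 0.658 ± 0.0583 with sgControl in the second.

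Genes that act on tubulin were read against the share of all genes tested with an adjusted p under 0.05. This share was 2.85% with sgCbfb in LPs, 5.97% with sgCbfb in Phase 1 and 6.48% between the stages with sgControl in the first experiment, and 12.5% with sgCbfb, 10.3% with sgCTCF and 7.22% with sgMed12 in the second. Counts as small as those below are therefore a description of these lists and do not set them apart from other genes. All 21 genes for tubulin folding, the CCT chaperonin, prefoldin and the tubulin cofactors, were tested, and 0 passed against sgControl or between the stages with sgControl in the first experiment or with sgCbfb in the second (limma, with 1 to 4 at an unadjusted p under 0.05). With sgCTCF 1 of them fell and with sgMed12 2 fell (2 and 9 at an unadjusted p under 0.05). None of the 8 genes of the γ-tubulin ring, which nucleates microtubules, and none of the 14 or 15 tested genes for tubulin modification passed against sgControl in either experiment or between the stages with sgControl (limma, with 0 to 1 and 0 to 4 at an unadjusted p under 0.05). Ttc5, whose product senses nascent tubulin, had 12.9, 12.7 and 14.1 CPM with sgControl and 5.37, 8.63 and 5.08 CPM with sgCTCF, without overlap. It was called lower with sgCTCF (log2 fold change -0.98 ± 0.24, adjusted p = 0.0077), and Scaper rose there from 40.7 to 67.7 CPM (0.72 ± 0.16, adjusted p = 0.004). Of 21 tested genes for microtubule-binding proteins, 1 fell in Phase 1 relative to LP sgControl cells, 1 rose and 1 fell with sgCTCF and 1 rose and 1 fell with sgMed12, while 0 passed with sgCbfb in LPs of either experiment or in Phase 1 (2 to 3 at an unadjusted p under 0.05). The one called was Map7, which recruits kinesin-1 to microtubules and rose with sgCTCF from 2.41 to 16.8 CPM (2.40 ± 0.31, adjusted p = 8.6e-06).

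Genes of the cell cycle were set beside the tubulins because microtubules form the mitotic spindle. Of 20 such genes, including Mki67, Cdk1 and Plk1, 0 passed with sgCbfb in LPs or in Phase 1 of the first experiment (limma, with 1 and 10 at an unadjusted p under 0.05) and 1 fell with sgCbfb in the second. Of all genes tested, 2.85%, 5.97% and 12.5% passed in these comparisons. In Phase 1 relative to LP sgControl cells 6 of the 20 fell, where 6.48% of all genes passed in either direction. With sgCTCF 4 fell (10.3% of all genes) and with sgMed12 7 fell (7.22%). The summed level of the 20 genes was 6576 to 6703 CPM in LP sgControl, 5617 to 6424 CPM in Phase 1 sgControl and 6527 to 6922 CPM in Phase 1 sgCbfb. This sum was thus higher with sgCbfb in Phase 1, where Tuba1a and the tubulin sum were also higher. For the second it was 7178 to 7202 CPM with sgControl, 6111 to 6703 with sgCTCF and 5341 to 5972 with sgMed12. It was thus lower with sgMed12, where Tubb3 rose and Tubb2b and Tuba1b fell. But it was also lower with sgCTCF, where Tubb2a and Tubb2b rose. With sgCbfb, where Tubb2a and Tubb2b fell, it was 6573 to 7664 CPM and overlapped sgControl. The part of the cell cycle in these values was not tested.

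Markers of stroma, the feeder cells of these cultures, were summed over 14 genes. In the first experiment the sum was 8.99 to 14.2 CPM in LP sgControl, 4.99 to 13.2 in LP sgCbfb, 12.7 to 30.3 in Phase 1 sgControl and 7.07 to 14.9 in Phase 1 sgCbfb. In the second it was 7.97 to 35.6 CPM with sgControl, 5.04 to 25.3 with sgCbfb, 25.6 to 35.4 with sgCTCF and 14.8 to 51.4 with sgMed12. With sgCTCF, where Tubb2a and Tubb2b rose, 0 of 7 tested stromal genes passed but 6 had an unadjusted p under 0.05, and their median log2 fold change was 1.25 (limma). With sgMed12 0 of 7 passed and 2 had an unadjusted p under 0.05. The sums overlapped sgControl in each comparison with it, and the part of stromal RNA in the tubulin values was not tested.

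The genes whose pattern was most like that of Tubb3 were found by Pearson's r of log2(CPM + 1) over the 12 libraries of the first experiment, among 8998 genes with a mean over 10 CPM in any group. They were Colq (r = 0.94), which anchors acetylcholinesterase, Cd3g (0.90), a chain of the CD3 complex, Bcl2l14 (0.90), a BCL2 relative, Dennd4a (0.90), an exchange factor for RAB GTPases, and Fbxo31 (0.90), an F-box protein. Colq means were 0.634 CPM in LP sgControl, 4.98 in LP sgCbfb, 18.9 in Phase 1 sgControl and 2.66 in Phase 1 sgCbfb cells, the same order of the 2 highest groups as for Tubb3. Cd3g means were 0.411, 1.84, 44.1 and 2.51 CPM in the same order. Over the 12 libraries of the second experiment r with Tubb3 was 0.40 for Colq, -0.39 for Cd3g, -0.25 for Bcl2l14, 0.09 for Dennd4a and 0.07 for Fbxo31. Among the other tubulins, r with Tubb3 was highest for Tuba4a (0.67) and lowest for Tuba1a (-0.85) in the first experiment, against -0.31 and -0.48 in the second. The libraries fall into groups of 3 and share scaling, so these values describe likeness only.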

How the data were processed

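QuantSeq 3′ mRNA libraries were analysed for 8 groups of 3, assigned from the sample labels. Trimming by the authors was with fastp and mapping with STAR (mm10), and 1 value per gene and library was deposited. The deposited values, headed TPM, are CPM: they are whole multiples of 1 read within 0.02 reads for 100% of values, without division by length. The counter and its strand setting are not given in the sources used here. A last line with no identifier, which holds the value of 1 read, and a column with the authors' sgControl mean were not used. Intervals and floors cover counting or library error only. The tubulin genes and the gene lists were chosen with earlier results of these data known.

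The test, for genes that reached 1 CPM in 3 libraries or more, was made on log2(CPM + 1) by limma 3.58.1 (R 4.3.3, moderated variances with a trend), all 4 groups of an experiment in one fit, with Benjamini-Hochberg adjustment across all genes. Log2 fold changes are on this scale and understate those of low genes, while values written as N-fold are ratios of mean CPM. A call needed an adjusted p under 0.05, an absolute log2 ratio of means over 1 and a mean over 10 CPM (for the difference between stages, the adjusted p and the mean only). In counts for the first experiment Tubb3 was left out. All 10 members, the list genes called in a comparison (some only in the closing section), and the 5 genes most like Tubb3 are named. On simulated counts with 200 genes changed 3-fold, limma recovered 196 with 2 false calls (13196 genes, sgCbfb in LPs, first experiment). The changed genes were drawn from the more abundant ones, and all genes had the same simulated spread. The simulation therefore does not show recovery for low genes such as Tubb2a and Tubb6, for changes under 3-fold or with an outlying library. Alternatives were edgeR 4.0.16 on the recovered reads, other filters, pseudocounts and scaling, and leaving out each library. Sums and shares were compared by two-sided exact permutation tests (SciPy 1.17.1).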

Additional observations from a re-analysis of the deposited data

Results flagged for a closer look

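For Tuba1a the effect of sgCbfb differed between the stages by the test of the difference itself. The effect in Phase 1 minus that in LPs was 0.97 on the log2(CPM + 1) scale (adjusted p = 0.00666, limma interaction). Phase 1 libraries were at 118 to 148 CPM with sgControl and 232 to 262 CPM with sgCbfb, and LP libraries at 192 to 214 CPM with sgControl and 174 to 201 CPM with sgCbfb.

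For Tubb3 all sgCbfb libraries lay above all sgControl libraries in LPs and below all of them in Phase 1. The corresponding difference of effects was -3.43, and this difference was not tested because Tubb3 was chosen on these values.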

How the results depend on the processing

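No member with an adjusted p under 0.05 changed direction under any alternative. Of 105 member values tested, 19 changed sign under at least 1 alternative, and none of these 19 had passed. Among them Tubb3 with sgCTCF was 0.25 and became -0.07 without sgControl replicate 3, and Tubb2b between sgMed12 and sgCbfb was 0.13 and became -0.09 without sgMed12 replicate 2. The number of members called (of the 9 other than Tubb3 in the first experiment, of 10 in the second) changed as follows. Without moderated variances it was 1 rather than 2 with sgCbfb in LPs of the first experiment, 1 rather than 2 with sgCTCF, 0 rather than 2 with sgMed12 and 2 rather than 3 between sgMed12 and sgCTCF. Without the fold threshold it was 1 rather than 0 with sgCbfb in Phase 1, 2 rather than 1 between the stages with sgControl, 3 rather than 2 with sgMed12 and between sgCTCF and sgCbfb, 4 rather than 3 between sgMed12 and sgCTCF and 2 rather than 0 between sgMed12 and sgCbfb, from genes under the fold for a call. With no filter on low values it was 1 rather than 2 with sgMed12, where Tubb3 was lost. For the difference of the sgCbfb effects between stages it was 2 rather than 1 in edgeR and with the replicate number as a block (replicate block), where Tuba4a was added. With single libraries left out, the number called ranged from 1 to 2 with sgCbfb in LPs of the first experiment (1 without LP sgControl replicate 2 or LP sgCbfb replicate 3), from 1 to 2 for the difference between stages (2 without LP sgControl replicate 3, Phase 1 sgControl replicate 3 or LP sgCbfb replicate 1), from 1 to 2 with sgCTCF (1 without sgControl replicate 2 or sgCTCF replicate 1), from 1 to 2 with sgMed12 (1 without sgControl replicate 3 or sgMed12 replicate 3), from 2 to 3 between sgMed12 and sgCTCF (2 without sgCTCF replicate 3) and from 0 to 1 between sgMed12 and sgCbfb (1 without sgCbfb replicate 2 or 3). The causes of these changes were not tested. Deviations of same-numbered libraries from their group means correlated at -0.011 to 0.102 (first experiment) and -0.063 to 0.111 (second). Their medians were 0.0034 and 0.041, against -0.0060 and -0.017 for libraries of other numbers. Whether the replicate numbers pair the libraries was not tested, and the main fit used no pairing. Under the replicate block Tubb3 differed between sgMed12 and sgCbfb at an adjusted p of 0.024, and Tuba4a passed with sgCbfb in LPs of the first experiment (0.029), as it did with only the groups compared (0.012). Tubb6 in the first experiment, at 1 to 11 reads per library, was limited by depth.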

Other observations

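Some genes near the tubulins also differed between groups; those named were chosen after their values were seen. Of 5 tested neighbors of Tubb2a, 2 passed with sgCTCF, where 10.3% of all genes tested had an adjusted p under 0.05. Of 13 tested neighbors of Tubb3, 2 passed in Phase 1 relative to LP sgControl cells (6.48% of all genes) and 2 with sgCbfb in Phase 1 (5.97%). Of 12 tested in the second experiment 1 passed with sgCTCF (10.3% of all genes). Counts this small do not set the neighbors apart from other genes. Ripk1, a kinase of cell death signaling 37127 bases from Tubb2a, rose with sgCTCF from 42.0 to 66.4 CPM (log2 fold change 0.65, adjusted p = 0.0019, limma), and Serpinb6a, a protease inhibitor gene 71480 bases from it, rose from 13.95 to 28.8 CPM (0.996, adjusted p = 0.0037). Near Tubb3, Tcf25, 7589 bases away, rose from 213 CPM in LP to 318 CPM in Phase 1 sgControl cells (0.57, adjusted p = 0.0049) and was at 235 CPM in Phase 1 sgCbfb cells (-0.43 against Phase 1 sgControl, adjusted p = 0.038). Mc1r, the melanocortin receptor gene 680 bases from Tubb3, had no read in LP sgControl and a mean of 6.77 CPM in Phase 1 sgControl cells (adjusted p = 0.00058), with 1.24 CPM in Phase 1 sgCbfb cells. Def8, 1512 bases from Tubb3, fell with sgCTCF from 15.1 to 7.87 CPM (-0.87, adjusted p = 0.015).

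Of 10 further tubulin genes, 4 were expressed enough to be tested, and Tubd1, a δ-tubulin of centrioles, fell with sgCbfb in the second experiment from 8.12 to 3.52 CPM (-1.01, adjusted p = 0.016, limma). Tuba8, an α-tubulin, had 9.88, 22.6 and 28.6 CPM in Phase 1 sgControl and 4.54, 7.54 and 4.12 CPM in Phase 1 sgCbfb cells, without overlap, but did not pass the test (-1.66, adjusted p = 0.131). In the second experiment Syt1 was called with sgCbfb again, from 2.79 to 51.1 CPM (3.90, adjusted p = 1.2e-07).

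Several genes of the other lists, chosen for the cells' identity, were called by limma. Among lymphoid progenitor genes, Kit, Cd34 and Runx1 rose with sgCbfb in LPs of the first experiment, Flt3, Cd34 and Runx1 rose with sgCbfb in Phase 1, and Cd34 and Runx1 rose with sgCbfb in the second. Between Phase 1 and LPs, Kit rose and Flt3 fell with sgControl, and Flt3 fell with sgCbfb. Among Notch-response genes, Il2ra rose with sgCbfb in LPs of both experiments and Notch1 in the second, while Tcf7, Gata3 and Il2ra fell with sgCbfb in Phase 1, and Hes1, Dtx1, Nrarp and Il2ra were higher in Phase 1 than in LPs with sgCbfb. The sgCbfb effect differed between the stages for Kit, Flt3, Tcf7, Gata3 and Il2ra. Hes1 rose with sgCTCF and with sgMed12, and Tcf7 and the B-lineage factor Pax5 rose with sgCTCF. Set against sgCbfb, sgCTCF was higher for Map7, Il7r, Hes1, Tcf7, Pax5 and Cbfb and lower for Ttc5, Syt1, Kit, Cd34, Runx1, Notch1 and Il2ra, and sgMed12 was higher for Pdgfrb and Hes1 and lower for Syt1, Kit, Runx1, Notch1 and Il2ra. Between sgMed12 and sgCTCF, Ttc5, Pdgfrb and Cd34 were higher and Map7, Tcf7 and Pax5 lower with sgMed12.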
